A study of Mus musculus with 39 samples.

Results

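Lrrc55 and 7 other genes of the BK potassium channel were followed across mouse pancreatic islets of 10 groups. The 8 genes were taken by name, each as the probe set that is annotated with 1 gene symbol and has the highest mean over all arrays, and all 8 were found among 19938 genes measured in this way. They were Lrrc55, Lrrc26, Lrrc38 and Lrrc52, which encode gamma subunits, Kcnma1, which encodes the pore, and Kcnmb1, Kcnmb2 and Kcnmb4, which encode beta subunits. The set was chosen by the log2 differences of Lrrc55 between groups of these arrays, and the 7 others were added as its relatives, so the values of Lrrc55 are described here without a test, and the other 7 genes were tested.

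The study hybridized islet RNA to 39 arrays of the Affymetrix Mouse Gene 1.0 ST type, each deposited as log2 values with 1 decimal. The tested line was Pdx1-creLate (4 arrays), which was set against wild-type littermates (4 arrays), and both came from generation N8 of a backcross of that line and are labelled as not pregnant. All other mice were wild-type C57bl6/J. They were non-pregnant females (4 arrays), mice at day 3.5 (3 arrays), 6.5, 9.5, 12.5, 15.5 and 18.5 of pregnancy (4 arrays each) and lactating mice 10 days post partum (4 arrays). The study states that replicates are biological, and gives no age. Pdx1-creLate places Cre under a Pdx1 promoter fragment active in pancreas and beta cells, and the transgene contains, as is known from other work, a minigene for human growth hormone, which islets express and which can act on lactogen receptors. Littermates without the transgene do not carry the minigene, so effects of Cre, of the minigene and of the insertion cannot be told apart.

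The hormone genes of the islet were high on every array, with log2 levels of 11.9 to 12.7 for Ins2 (insulin), 13.0 to 14.0 for Gcg (glucagon) and 12.2 to 13.8 for Sst (somatostatin). Non-pregnant replicate 1 stood apart with Ins2 at 11.9 and Gcg at 13.0, against at least 12.4 and 13.5 on the other 38 arrays. The female-specific Xist RNA was at 3.8 to 5.0 on the 8 backcross arrays and at 9.7 to 10.5 on the 31 C57bl6/J arrays, and the Y-linked gene Uty was at 7.6 to 8.4 on the backcross arrays and at 2.9 to 3.4 on the C57bl6/J arrays. By these genes the 8 backcross arrays are from males and the 31 C57bl6/J arrays from females, although the labels give no sex for the backcross mice. Effects of sex, strain and the backcross therefore cannot be told apart between these sets, whereas Pdx1-creLate mice and their littermates lay within the same ranges in both genes. Array medians lay between 5.8 and 6.0. The mean of 12 acinar markers ranged widely, from 5.48 on day 3.5 replicate 1 to 11.07 on Pdx1-creLate replicate 1.

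BK channels are large-conductance potassium channels that open when the membrane is depolarised and intracellular calcium rises. In beta cells they carry part of the outward current that ends each action potential during glucose-stimulated insulin release. Beta subunits slow the gating of the pore and change its calcium sensitivity, and gamma subunits, which are leucine-rich-repeat membrane proteins, let the pore open at more negative voltages. Islets of pregnant rodents respond to placental lactogen and prolactin through the prolactin receptor and STAT5, enlarge their beta cell mass and release insulin at lower glucose.

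The 8 genes lie at separate places in the mouse genome (GRCm38, RefSeq gene bounds). Lrrc55 spans positions 85188067 to 85198750 of chromosome 2 and Lrrc26 spans 25289911 to 25291193 of the same chromosome. Lrrc38 lies on chromosome 4 (143347076 to 143371032) and Lrrc52 on chromosome 1 (167445675 to 167466780). Kcnma1 spans 23292288 to 24005110 on chromosome 14. Kcnmb1 lies on chromosome 11 (33962955 to 33973641), Kcnmb2 on chromosome 3 (31901861 to 32200180) and Kcnmb4 on chromosome 10 (116417861 to 116473859).

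RefSeq promoters (GRCm38.p6) are shown for 3 members that differ in the arrays and in the motifs they hold: Lrrc55, whose level varied most between groups, Kcnma1, the pore, and Kcnmb2, whose window holds a STAT palindrome. Each sequence is the 250 bases before a RefSeq start site, at chr2:85198751-85199000 (minus strand), chr14:24004206-24004455 (minus strand) and chr3:31902453-31902702 (plus strand), and capitals mark matches to any of 5 motifs. The Lrrc55 window adjoins the gene bounds given above. The windows of Kcnma1 and Kcnmb2 lie inside their gene bounds, before a start site within the gene.
Lrrc55: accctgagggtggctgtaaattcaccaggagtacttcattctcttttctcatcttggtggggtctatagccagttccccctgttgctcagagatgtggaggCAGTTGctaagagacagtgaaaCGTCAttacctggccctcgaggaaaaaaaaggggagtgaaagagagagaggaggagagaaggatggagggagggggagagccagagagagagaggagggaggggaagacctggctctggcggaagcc
Kcnma1: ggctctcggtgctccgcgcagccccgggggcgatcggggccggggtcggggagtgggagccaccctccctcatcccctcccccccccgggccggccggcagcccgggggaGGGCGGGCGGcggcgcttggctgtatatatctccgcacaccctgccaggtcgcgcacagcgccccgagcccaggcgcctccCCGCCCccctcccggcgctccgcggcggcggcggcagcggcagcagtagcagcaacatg
Kcnmb2: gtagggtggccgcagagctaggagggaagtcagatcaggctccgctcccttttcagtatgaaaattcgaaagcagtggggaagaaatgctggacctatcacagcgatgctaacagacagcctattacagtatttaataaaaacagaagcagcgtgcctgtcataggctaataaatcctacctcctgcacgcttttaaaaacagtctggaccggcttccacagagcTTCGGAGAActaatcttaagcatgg
The motifs were searched on both strands and none of the 5 was allowed to mask another. Each member was read at a single start site, the first listed. The mouse windows were not reduced to a single window per gene, so their shares are per window. A motif absent from a member is thus absent from the window read, and its other start sites are not described. The STAT palindrome TTCNNNGAA occurred in 7.02% of 32851 mouse promoter windows of the same length, and among the 8 members it occurred in Kcnmb2, as TTCGGAGAA starting 25 bases before the start site. The cyclic AMP response motif TGACG, found in 17.8% of windows, occurred among the members in Lrrc55, read as CGTCA 127 bases before its start. The E-box CANNTG was found in 66.2% of windows and in Lrrc55 (CAGTTG, 149 bases before the start), Lrrc26, Lrrc38 and Lrrc52. GGGCGG, the GC box, was in 32.7% of windows and in Lrrc26, Kcnma1 and Kcnmb4. The TATA box TATAAA was in 12.4% of windows and in none of these 8. GC content was 54.0% in the Lrrc55 window, 79.2% in that of Kcnma1 and 47.2% in that of Kcnmb2. A match describes these letters and is not evidence that a factor binds.

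Lrrc55 RNA was low before and early in pregnancy, was higher on each day sampled from day 9.5 to day 18.5, was about as high 10 days post partum and was highest in Pdx1-creLate islets. The log2 levels were 10.4, 10.5, 9.9 and 10.1 in Pdx1-creLate islets, against 5.2, 4.8, 5.0 and 6.7 in control littermates. The groups did not overlap, and the highest control array, at 6.7, was replicate 4. In C57bl6/J mice the levels were 5.2, 5.3, 5.3 and 5.4 without pregnancy, 5.1, 5.1 and 5.3 at day 3.5, and 5.9, 5.4, 5.4 and 5.9 at day 6.5. They were 7.0, 6.9, 7.7 and 8.0 at day 9.5, and 8.2, 8.5, 8.5 and 8.5 at day 12.5. Later levels were 8.9, 8.7, 8.9 and 9.3 at day 15.5, 9.6, 9.7, 9.6 and 9.4 at day 18.5, and 9.8, 9.9, 9.2 and 9.7 at 10 days post partum. From day 9.5 on, every array lay above all 4 non-pregnant arrays. The deposited files hold no detection call, so whether levels near 5 stand above background is not known.

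**Figure D1:**
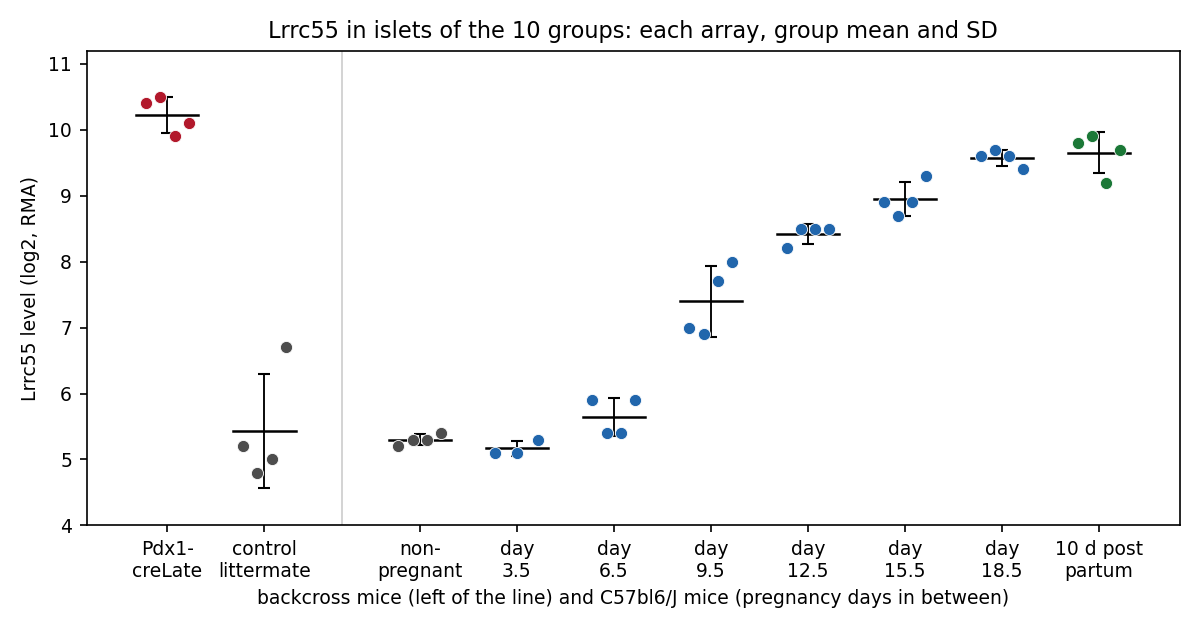
Lrrc55 log2 level on each of 39 arrays (points), with group mean (bar) and SD (whiskers), for backcross mice left of the line and C57bl6/J mice right of it. Pdx1-creLate arrays sit between 9.9 and 10.5, above control littermates at 4.8 to 6.7, and C57bl6/J levels climb between day 6.5 and day 18.5 and remain at 9.2 to 9.9 post partum.

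The Pdx1-creLate mean of 10.22 ± 0.28 exceeded the control mean of 5.42 ± 0.87 (SD, n = 4 each) by 4.80 ± 0.31 log2 units (SE), a 27.9-fold difference. Control replicate 4 carried most of the control spread. Without it the control levels were 4.8 to 5.2 (n = 3) and the difference was 5.23, or 37.4-fold. In these bulk islet samples, more cells that hold a transcript and more RNA per cell cannot be told apart.

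Relative to the same 4 non-pregnant arrays, which all day comparisons share, Lrrc55 differed by −0.13 ± 0.19 at day 3.5 and by 0.35 ± 0.17 at day 6.5 (log2 difference ± SE). The difference was 2.10 ± 0.17 at day 9.5 (4.29-fold), 3.13 at day 12.5 (8.72-fold), 3.65 at day 15.5 (12.6-fold) and 4.28 at day 18.5 (19.4-fold), with the same SE. The widest of the 5 steps between successive days sampled was the step to day 9.5 from day 6.5, at 1.75 (3.36-fold). The step to day 12.5 was 1.03, and the steps to days 15.5 and 18.5 were 0.53 and 0.63. Neighbouring days did not overlap in range from day 6.5 to day 18.5.

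Lactating mice 10 days post partum had a mean Lrrc55 level of 9.65 ± 0.31, against 9.58 ± 0.13 at day 18.5 (SD, n = 4 each). The difference of 0.08 ± 0.17 (SE; 95% interval −0.28 to 0.43) was smaller than the SD among post partum arrays. Against non-pregnant mice, post partum islets were higher by 4.35 ± 0.17, or 20.4-fold. No day between birth and day 10 was sampled, so a dip within that time would not be seen.

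Ordered by mean, Lrrc55 was highest in Pdx1-creLate islets, followed by post partum, day 18.5, day 15.5, day 12.5, day 9.5 and day 6.5, then control littermates, non-pregnant mice and day 3.5. Ranges overlapped between neighbours in this order at the top (Pdx1-creLate with post partum, post partum with day 18.5) and among the lowest 4 groups. Post partum and day 18.5, day 6.5 and control littermates, and control littermates and non-pregnant mice differed by less than the larger SD of each pair. Pdx1-creLate exceeded day 18.5 by 0.65 (1.57-fold), between mice that also differ in strain background and, by the sex-linked genes above, in sex. The transgene difference exceeded the mid-pregnancy difference (mean of days 9.5, 12.5 and 15.5 minus non-pregnant, 2.96) by 1.84 ± 0.31 (SE), and by 2.27 without control replicate 4.

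Kcnma1, the gene of the channel pore, stayed within a span of 0.40 log2 units over the 10 group means, where Lrrc55 spanned 5.06. Its levels were 8.8, 8.9, 8.8 and 8.6 in Pdx1-creLate islets, against 8.9, 8.9, 9.1 and 9.0 in control littermates, and the groups touched at 8.9. The difference was −0.20 (95% interval −0.40 to 0.00, adjusted p = 0.276) and was not called. A gene is called where limma's p, adjusted by Benjamini-Hochberg over all 19938 genes, is under 0.05. The levels at day 18.5 were 8.7, 8.7, 8.6 and 8.7, against 8.7, 8.6, 8.7 and 8.7 in non-pregnant mice, a difference of 0.00 (95% interval −0.16 to 0.16). At 10 days post partum they were 8.5, 8.4, 8.7 and 8.7, which is −0.10 relative to non-pregnant mice (adjusted p = 0.426). A second probe set of Kcnma1 was at 4.1 to 6.0 on all arrays and was not called in any of the 10 pairwise comparisons either.

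Among the beta subunits, Kcnmb2, whose protein inactivates the channel, had 9.9, 9.7, 9.8 and 9.8 in Pdx1-creLate islets, against 9.7, 9.4, 9.7 and 9.5 in control littermates. The groups touched at 9.7, and the difference of 0.23 (95% interval 0.02 to 0.43) was not called with these 8 arrays alone (adjusted p = 0.223). It was called when all 39 arrays shared 1 estimate of the spread (adjusted p = 0.0281). Kcnmb1, the beta subunit known from smooth muscle, had 5.7, 6.4, 6.1 and 5.6 in Pdx1-creLate islets and 6.5, 5.8, 5.6 and 5.9 in control littermates, with equal means of 5.95. Kcnmb4, known from neurons, had a mean of 5.30 ± 0.16 in Pdx1-creLate islets and 5.48 ± 0.33 in control littermates (SD, n = 4 each; adjusted p = 0.575). Over the 10 groups the means of Kcnmb1 spanned 0.65, those of Kcnmb2 0.55 and those of Kcnmb4 0.48.

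The other gamma subunits moved far less than Lrrc55. Lrrc26, whose protein gives the strongest negative voltage shift of the gamma subunits in expression systems, averaged 5.50 ± 0.18 in Pdx1-creLate islets and 5.53 ± 0.17 in control littermates (SD, n = 4 each; adjusted p = 0.914). Lrrc38 averaged 5.33 ± 0.05 in Pdx1-creLate islets and 5.13 ± 0.10 in control littermates, a difference of 0.20 whose ranges did not overlap but which was not called (adjusted p = 0.227). Lrrc52, known from testis and sperm, averaged 5.35 ± 0.13 in Pdx1-creLate islets and 5.20 ± 0.18 in control littermates (adjusted p = 0.506). Group means spanned 0.70 for Lrrc26, 0.58 for Lrrc38 and 0.40 for Lrrc52.

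**Figure D2:**
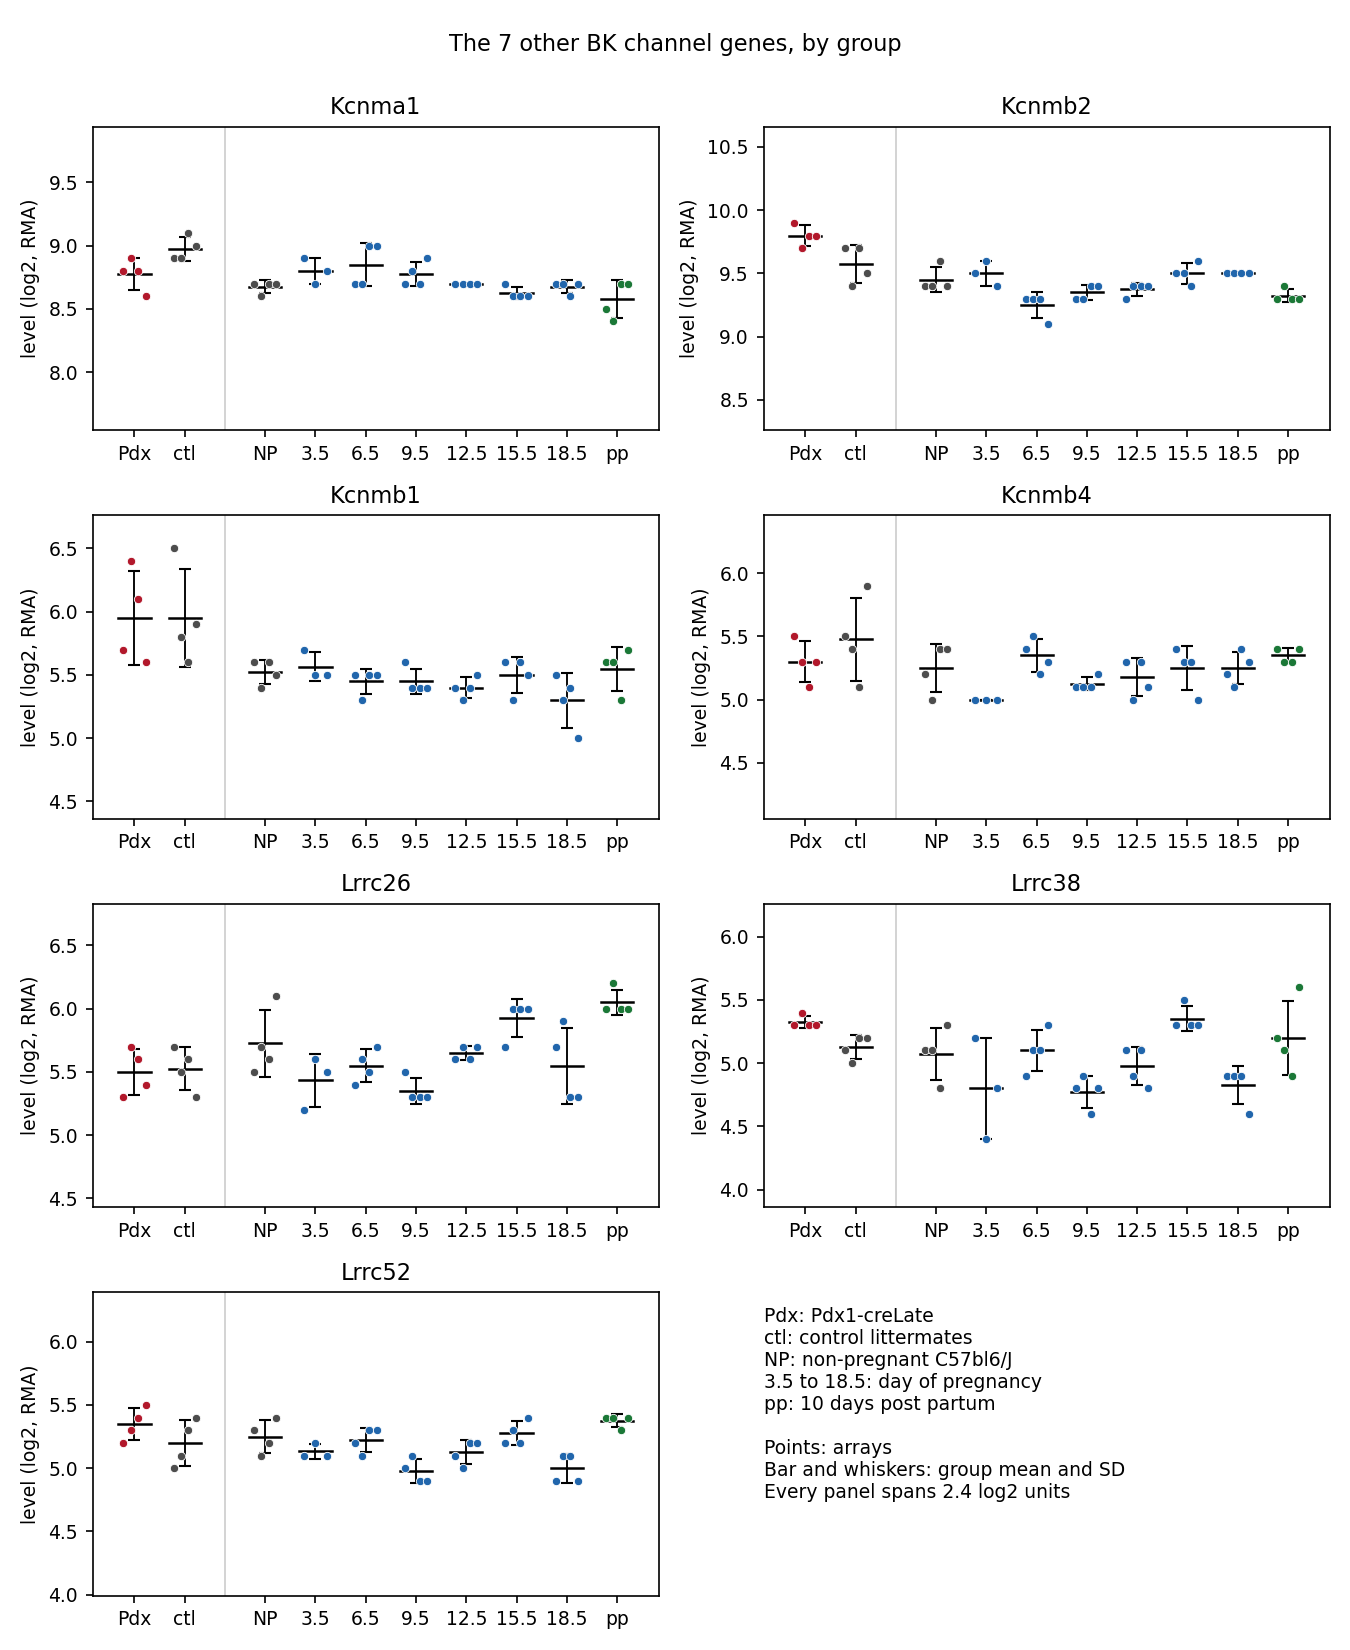
Log2 levels of the 7 other members on each array (points) with group mean (bar) and SD (whiskers); every panel spans 2.4 log2 units on its own range. Group means span 0.40 to 0.70 in each panel, against 5.06 for Lrrc55.

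Counted by comparison, 0 of the 7 were called between Pdx1-creLate and control littermates, where 6.59% of all genes were called, and 2 of the 7 (Lrrc38 and Kcnmb2) had an unadjusted p under 0.05. The largest difference among the 7 in that comparison was 0.23. At day 3.5, 0 of 7 were called (2 with an unadjusted p under 0.05) where 0.0451% of all genes were called, and at day 6.5 0 of 7 (2 unadjusted) where the share was 0.622%. The share of all genes called was 19.4% at day 9.5, where 2 of 7 were lower (7.74% of all genes were lower), 5.27% at day 12.5 with 0 of 7 (0 unadjusted), 8.23% at day 15.5 with 0 of 7 (1 unadjusted), and 11.1% at day 18.5 with 1 of 7 lower (2.5% of all genes were lower). For mid-pregnancy 0 of 7 were called (0 unadjusted) against 9.24% of all genes. For the difference between the transgene and mid-pregnancy effects 0 of 7 were called (3 unadjusted) against 5.48%, and the lowest adjusted p was 0.0815 for Kcnmb2, whose effects differed by 0.27. Post partum against non-pregnant gave 0 of 7 (1 unadjusted) where 12.2% of all genes were called. All these shares are at an adjusted p under 0.05. No share of all genes is given at an unadjusted p under 0.05, so the unadjusted counts cannot be read against the shares.

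At day 9.5 Lrrc26 was at 5.5, 5.3, 5.3 and 5.3, against 5.5, 5.7, 5.6 and 6.1 in non-pregnant mice. The groups met at 5.5, and Lrrc26 was lower by −0.38 ± 0.12 (SE, adjusted p = 0.0266). Lrrc52 was at 5.0, 5.1, 4.9 and 4.9 at day 9.5, against 5.3, 5.1, 5.2 and 5.4 in non-pregnant mice, which is −0.28 ± 0.08 (adjusted p = 0.0114). At day 18.5 Lrrc52 was at 4.9, 5.1, 5.1 and 4.9, or −0.25 ± 0.08 relative to non-pregnant mice (adjusted p = 0.0280). All 3 calls ended without non-pregnant replicate 4 (adjusted p = 0.173, 0.0668 and 0.138). The Lrrc26 call also ended without day 9.5 replicate 2, 3 or 4 (0.0531 to 0.0763), and the day 18.5 call without day 18.5 replicate 1 or 4 or non-pregnant replicate 1 (0.0655 to 0.113). The SD of all values on an array averaged 2.09 at day 9.5 and 2.09 at day 18.5, against 2.03 in non-pregnant mice, and with that SD as a covariate 0 of 7 were called on either day. The SD was at least 2.067 at day 9.5 and 2.053 at day 18.5, and at most 2.048 in non-pregnant mice. It thus follows the group, and the lost calls do not separate the SD from the day.

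Of the pairwise comparisons tested, the one across birth called the most of the 7. Steps between successive days of pregnancy were not tested for them, so birth cannot be ranked among all steps. From day 18.5 to 10 days post partum 4 were higher and 1 was lower, where 30.2% of all genes were called (11.8% higher and 18.4% lower). The 4 higher ones (Lrrc26, Lrrc38, Lrrc52 and Kcnmb1) had lower means at day 18.5 than at day 15.5. The mean of Lrrc38 was 5.35 at day 15.5, 4.825 at day 18.5 and 5.2 post partum. That of Lrrc26 was 5.925, 5.55 and 6.05 in the same order. Lrrc26 was at 6.0, 6.2, 6.0 and 6.0 post partum, against 5.7, 5.9, 5.3 and 5.3 at day 18.5. The groups did not overlap, and the difference was 0.50 ± 0.12 (SE, adjusted p = 0.00387). Lrrc52 was at 5.4, 5.4, 5.3 and 5.4 post partum, above its day 18.5 levels on every array, with a difference of 0.38 ± 0.08 (adjusted p = 0.00117). Lrrc38 was higher by 0.38 ± 0.13 (adjusted p = 0.0355) and Kcnmb1 by 0.25 ± 0.10 (adjusted p = 0.0455). Kcnmb2 was at 9.3, 9.4, 9.3 and 9.3 post partum, against 9.5 on all 4 arrays at day 18.5, and was lower by −0.18 ± 0.07 (adjusted p = 0.0426). Kcnma1 (−0.10, adjusted p = 0.312) and Kcnmb4 (0.10, adjusted p = 0.399) were not called. With each array centred on its median, Kcnma1 was called too (−0.23, adjusted p = 0.0416), while Lrrc38 (0.25, adjusted p = 0.119) and Kcnmb1 (0.13, adjusted p = 0.323) were not, so that 2 were higher (Lrrc26 and Lrrc52) and 2 lower (Kcnmb2 and Kcnma1). This centring moved the median difference over all genes by −0.13 at this step, to −0.15, and 4.05% of all genes were then higher and 34.9% lower.

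The 5 calls across birth differed in how far they rested on single arrays. The calls of Lrrc26 and Lrrc52 stood without any 1 of the 8 arrays. The call of Lrrc38 ended without day 18.5 replicate 1 or 4 or post partum replicate 1 or 4, that of Kcnmb1 without day 18.5 replicate 2 or 4 or post partum replicate 1, 2 or 4, and that of Kcnmb2 without any array but post partum replicate 2. The array SD averaged 2.01 post partum, where it was at most 2.042, against 2.09 at day 18.5, where it was at least 2.053. The SD thus follows the group at this step, and a fit with it as a covariate cannot separate the SD from the step. The mean of the 25% of genes with the lowest levels was 4.11 post partum, against 3.95 at day 18.5. With the SD as a covariate 0 of 7 were called across birth, but the differences moved unequally. That of Kcnmb1 was 0.25 as before (adjusted p = 0.458) and that of Lrrc52 was 0.27 (adjusted p = 0.265), whereas those of Lrrc26 (0.20), Lrrc38 (0.12) and Kcnmb2 (−0.12) were smaller (adjusted p = 0.622, 0.833 and 0.623). With quantile normalization of all arrays 2 were called, Lrrc26 and Lrrc52, both higher. In that fit 4.87% of all genes were higher and 5.06% lower, so fewer genes of any kind were called than in the main fit.

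Markers of other cells moved at the same step. All 6 endothelial markers were lower post partum (Plvap most, −0.60), with a list mean of 7.96 over the 4 arrays, against 8.42 at day 18.5, and the 2 groups did not overlap. Of 7 measured Schwann cell and neuronal markers 5 were lower (Stmn2 most, −0.88), with list means of 6.44 to 6.61 post partum, against 6.87 to 7.10 at day 18.5. Of 10 smooth muscle and pericyte markers 3 were lower, with list means of 6.13 to 6.32 post partum, against 6.40 to 6.53 at day 18.5, and Acta2, the actin of smooth muscle, was lower by −0.73 (adjusted p = 0.000673). Kcnmb1, known from smooth muscle, was higher at this step. Acinar markers were called in 0 of 12, ductal markers in 1 of 4 (Krt7, −0.38) and leukocyte markers in 1 of 7 (Cd3e, 0.30). The part of these cells in the differences of the members was not tested.

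**Figure D3:**
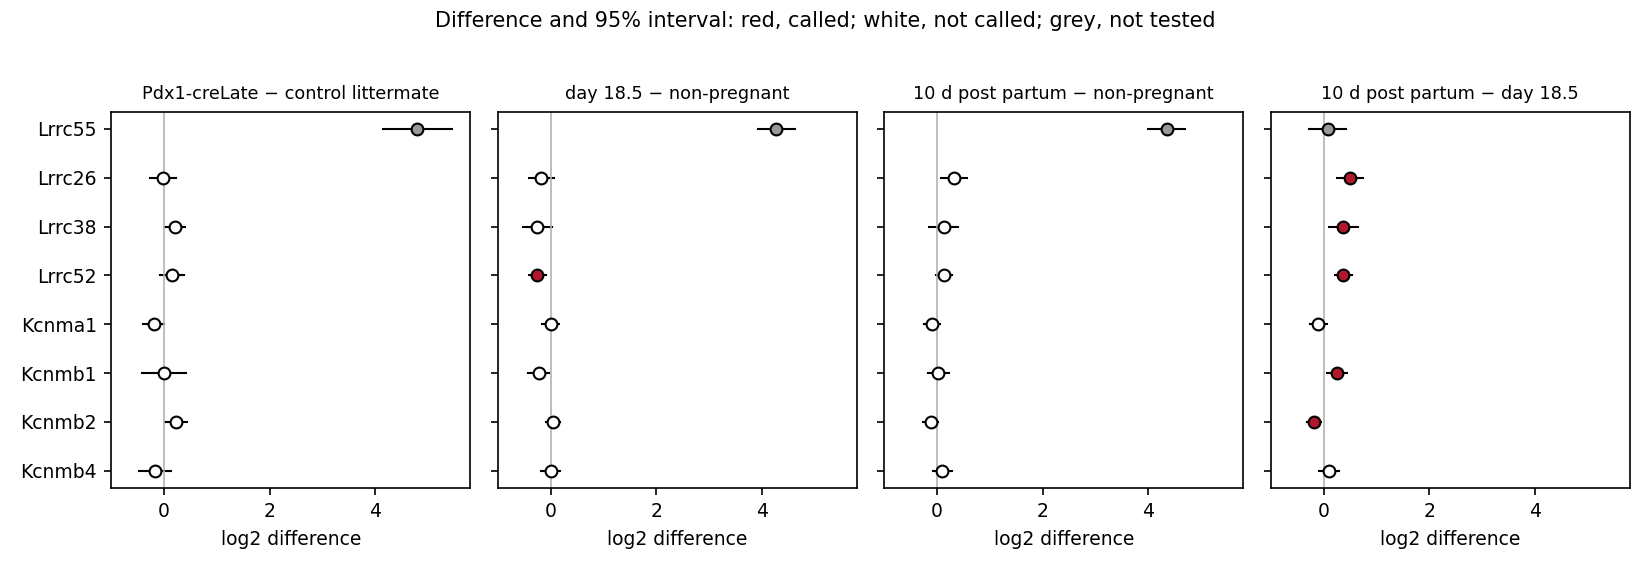
Log2 difference (points) and 95% interval (lines) of the 8 members in 4 comparisons; red points were called, white points were not and grey points (Lrrc55) were not tested. Lrrc55 stands at 4.80, 4.28 and 4.35 in the first 3 panels and at 0.08 across birth, while every other member lies within 0.50 of 0.

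Any difference among the 8 C57bl6/J groups was tested with limma's moderated F-test. It called 6 of the 7 members, where 54% of all genes were called, and Kcnmb1 was not called (adjusted p = 0.212). The adjusted p was 0.000251 for Lrrc26, 0.000675 for Lrrc52, 0.00545 for Lrrc38, 0.00915 for Kcnmb2, 0.0408 for Kcnmb4 and 0.0435 for Kcnma1. The second probe set of Kcnma1 was called too (adjusted p = 0.0234 over 21789 probe sets). The count fell to 2 with the array SD as a covariate and to 2 with quantile normalization of all arrays. The share of all genes called by the F-test in these fits is not given here, so the counts cannot be read against the 54%.

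The course of each of the 7 members over the groups was set beside that of Lrrc55. Across the 10 group means Pearson's r with Lrrc55 was −0.60 for Kcnma1, 0.37 for Lrrc26, 0.33 for Lrrc38, 0.28 for Kcnmb2, 0.18 for Lrrc52, 0.09 for Kcnmb4 and −0.07 for Kcnmb1. Over the 8 C57bl6/J groups alone r was −0.72 for Kcnma1, 0.50 for Lrrc26, 0.25 for Lrrc38 and 0.08 for Kcnmb2. It was 0.01 for Lrrc52, 0.36 for Kcnmb4 and −0.43 for Kcnmb1. These values describe 10 or 8 points that share arrays, preparation and normalization, and carry no p.

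Among the 648 genes whose group means spanned at least 1 log2 unit, 43 had an r over 0.9 with Lrrc55 across the 10 group means and 6 had an r under −0.9. The 5 highest were Prok1 (0.976), which encodes the secreted peptide prokineticin, Mctp1 (0.970), a calcium-binding membrane protein, Cldn8 (0.967), a tight junction claudin, Kcnk10 (0.966), the two-pore-domain potassium channel TREK-2, and Crispld2 (0.964), a secreted protein. Over the 39 single arrays their r was 0.946, 0.940, 0.962, 0.934 and 0.917. Kcnk10, the potassium channel among them, averaged 7.10 ± 0.08 in Pdx1-creLate islets and 5.55 ± 0.13 in control littermates (SD, n = 4 each). It averaged 5.58 in non-pregnant mice, 6.20 at day 9.5, 6.90 at day 18.5 and 6.45 at 10 days post partum.

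All 5 of these genes had a lower mean post partum than at day 18.5, where Lrrc55 differed by 0.08. The difference across birth was −1.10 for Cldn8, −0.45 for Kcnk10, −0.38 for Prok1, −0.38 for Crispld2 and −0.13 for Mctp1. Those of Prok1 and Mctp1 were smaller than the SD among post partum arrays (0.56 and 0.21), as that of Lrrc55 was. Those of Cldn8, Kcnk10 and Crispld2 exceeded it (0.31, 0.21 and 0.26). The other genes with an r over 0.9 are not described at this step. The lowest r belonged to Pcdh15 (−0.963), a protocadherin, Six4 (−0.950), a homeobox factor, Gria2 (−0.949), a subunit of AMPA glutamate receptors, Zim1 (−0.916), a zinc finger gene, and Itgb8 (−0.914), an integrin chain. In Pdx1-creLate islets the means of these 5 differed from those of control littermates by −0.98 to −1.63 log2 units. The genes were picked for likeness to Lrrc55, so their differences are descriptions.

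**Figure D4:**
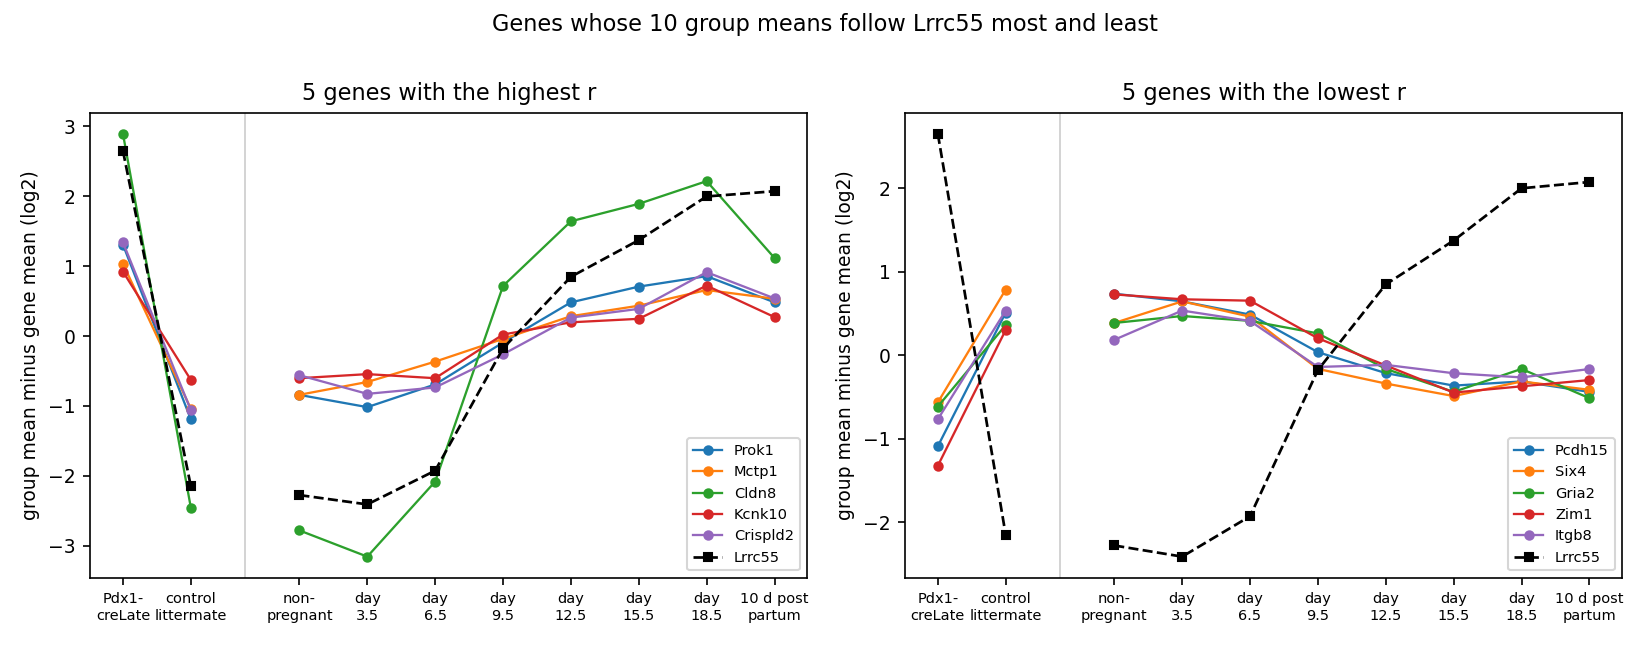
Group means minus each gene's mean over groups (log2) for Lrrc55 (dashed) with the 5 genes of highest r (left) and of lowest r (right), over the 10 groups. Cldn8, with a difference of 5.35 between Pdx1-creLate and control littermates, and Lrrc55, with 4.80, have the widest course, and across birth Cldn8 declines while Lrrc55 does not.

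Other genes of beta cell excitability were read from 4 lists with 46 of 51 genes measured: relatives of BK among the Slo and SK channels (7 of 7), other potassium channels (17 of 20), voltage-gated calcium channel subunits (15 of 16) and calcium stores and release (7 of 8). The remaining 5 are not analysed here. In Pdx1-creLate islets 8 of the 46 were lower than in control littermates and 0 were higher, or 17.4%, where 2.86% of all genes were higher and 3.72% lower. The list medians were −0.18, −0.18, −0.10 and −0.35 in the order given, and the median over all genes was −0.03. The lists do not hold every potassium channel: Kcnk10, at 7.10 in Pdx1-creLate islets and 5.55 in control littermates, is on none of them, so the count of 0 higher is for the listed genes alone. With quantile normalization of all arrays 1 listed gene was higher and 8 were lower, where 3.14% of all genes were higher and 3.36% lower. With all 39 arrays in 1 model 17 were called, and with the array SD as a covariate 4. The share of all genes called in these fits is not given here, so their counts cannot be read against the shares above.

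Kcnk16, which encodes the potassium leak channel TALK-1 of beta cells, differed most. It was at 9.6 to 10.0 in Pdx1-creLate islets, where the mean was 9.80 ± 0.18, against 10.88 ± 0.10 in control littermates (SD, n = 4 each), without overlap, and was lower by −1.08 ± 0.10 (SE, adjusted p = 9.45e-06). In mid-pregnancy it differed from the non-pregnant level by 0.02 (adjusted p = 0.929), and the 2 effects differed by −1.09 (adjusted p = 2.06e-09). Kcnk16 was named for its transgene difference, which is part of that test. Of the 46 listed genes 7 were called in the same test (2 higher and 5 lower), or 15.2%, against 5.48% of all genes. Post partum, Kcnk16 averaged 10.45 ± 0.13, against 10.73 ± 0.10 in non-pregnant mice (SD, n = 4 each). Itpr3, an inositol trisphosphate receptor that releases stored calcium, was at 7.4 to 7.6 in Pdx1-creLate islets, against 8.0 to 8.3 in control littermates (−0.70, adjusted p = 0.000273). Itpr2, of the same family, was lower by −0.53 (adjusted p = 0.00574). Kcnn3, a small-conductance calcium-activated potassium channel, was lower by −0.65 (adjusted p = 0.00361), Kcnj6, an inward rectifier gated by G proteins, by −0.50 (adjusted p = 0.00211), and Kcnh2, the ERG channel, by −0.43 (adjusted p = 0.00638). Kcnj6 averaged 5.275 in Pdx1-creLate islets and 5.775 in control littermates, and whether this stands above background is not known. With the array SD as a covariate the calls of Kcnn3 (−0.56, adjusted p = 0.0615) and Kcnh2 (−0.39, adjusted p = 0.0728) ended.

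The calls of Cacna1c, the pore of the CaV1.2 calcium channel (−0.58, adjusted p = 0.0119), and of Atp2a2, a calcium pump of the endoplasmic reticulum (−0.35, adjusted p = 0.0490), rested on single arrays. That of Cacna1c ended without Pdx1-creLate replicate 3 (adjusted p = 0.0562) or control replicate 3 (0.0537), and that of Atp2a2 without any array but Pdx1-creLate replicate 4. Both calls also ended with the array SD as a covariate (adjusted p = 0.104 and 0.227). The ATP-sensitive channel genes Kcnj11 (−0.25, adjusted p = 0.173) and Abcc8 (−0.15, adjusted p = 0.413) and the calcium channel gene Cacna1d (−0.18, adjusted p = 0.378) were not called. Kcnj11 was called when all 39 arrays shared 1 estimate of the spread (adjusted p = 0.0264). Markers of other cells were called between Pdx1-creLate and control littermates in 1 of 10 for smooth muscle (Acta2, −0.75). Of 7 Schwann cell and neuronal markers 1 was higher (Ngfr, 0.98) and 2 were lower, with a list median of −0.18. Of 4 ductal markers 1 was higher (Cftr, 3.53), where the list median was −0.15. Calls were 0 of 6 for endothelium, 0 of 12 for acini (list median 0.80) and 0 of 7 for leukocytes. Of 5 islet hormones 2 were lower (Sst most, −0.55). Their part in these differences was not tested.

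In mid-pregnancy 1 of the 46 was higher and 8 were lower, or 19.6%, where 6.72% of all genes were higher and 2.52% lower. Cacna2d1, an auxiliary subunit that carries calcium channels to the membrane, was lower by −0.33 (adjusted p = 0.00362) and stood without any 1 array. Kcnc2, a fast delayed rectifier, was lower by −0.36 (adjusted p = 0.00575), and its call ended without non-pregnant replicate 3 (adjusted p = 0.0531). Its level was 5.37 in mid-pregnancy and 5.725 in non-pregnant mice, and whether this stands above background is not known. Cacna1d was lower by −0.28 (adjusted p = 0.0167) and its call ended without non-pregnant replicate 1 or 4 (0.0984 and 0.0582). Cacna1c, Cacna1a, Itpr2 and Itpr3 differed by −0.25, −0.24, −0.26 and −0.22 and were called, and each of these calls ended without 2 or 3 of the 4 non-pregnant arrays taken singly (adjusted p up to 0.123). The higher one was Kcnip1, an accessory protein of transient potassium channels (0.26, adjusted p = 0.0446), whose call ended without any of 11 of the 16 arrays (adjusted p up to 0.304). The number called was 4 without non-pregnant replicate 2 or 4, 5 without non-pregnant replicate 3, and 3 with arrays centred on their medians (1 higher and 2 lower). With that centring 6.59% of all genes were higher and 1.22% lower. Centring ended the calls of Cacna1d, Cacna1c, Cacna1a, Itpr2 and Itpr3 (adjusted p 0.0518 to 0.151), and the array SD as a covariate ended those of Kcnip1 and Cacna1a (adjusted p = 0.336 and 0.0916). Abcc8 (−0.11, adjusted p = 0.257) was called with quantile normalization of all arrays (−0.21, adjusted p = 0.00873).

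At day 18.5, 4 of the 46 were lower and 0 were higher, or 8.7%, where 8.59% of all genes were higher and 2.5% lower. Kcns3, a silent subunit that modifies delayed rectifiers, was lower by −0.40 (adjusted p = 0.00880), and Cacna1e, the pore of the R-type calcium channel, by −0.33 (adjusted p = 0.00594). Kcnc2 (−0.38, adjusted p = 0.0195) and Cacng4, a calcium channel gamma subunit (−0.25, adjusted p = 0.0269), were called too. Cacna1e averaged 5.05 at day 18.5 and 5.375 in non-pregnant mice, and Kcnc2 averaged 5.35 and 5.725. Without a detection call, whether such levels stand above background is not known. The call of Kcnc2 ended without day 18.5 replicate 4 or non-pregnant replicate 3 (0.0874 and 0.0775), and that of Cacng4 without day 18.5 replicate 2, 3 or 4 or non-pregnant replicate 2 or 4 (0.0555 to 0.108). With the array SD as a covariate the calls of Kcns3, Cacna1e and Cacng4 ended (adjusted p = 0.191, 0.233 and 0.304), and centring each array on its median ended those of Kcnc2, Cacna1e and Cacng4 (0.0885, 0.0558 and 0.230). The count was 2 without day 18.5 replicate 4 and 2 with the array SD as a covariate. Centring gave 2 higher and 1 lower, where 15.4% of all genes were then higher and 0.712% lower. At days 3.5 and 6.5, 0 of the 46 were called. At day 9.5, 1 was higher and 11 were lower, where 11.6% of all genes were higher and 7.74% lower. Centring gave 3 higher and 1 lower there, where 19.2% of all genes were then higher and 2.13% lower. At day 12.5, 0 were higher and 1 was lower, where the shares of all genes were 4.08% and 1.19%, and at day 15.5, 0 were higher and 6 lower, where they were 3.7% and 4.53%. Post partum, 1 was higher and 10 were lower than in non-pregnant mice, where 4.46% and 7.78% of all genes were, and 5 were higher and 6 lower than at day 18.5. The last count is 23.9% of the list, against 30.2% of all genes (11.8% higher and 18.4% lower). With centring it was 1 higher and 18 lower, where 4.05% of all genes were higher and 34.9% lower.

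**Figure D5:**
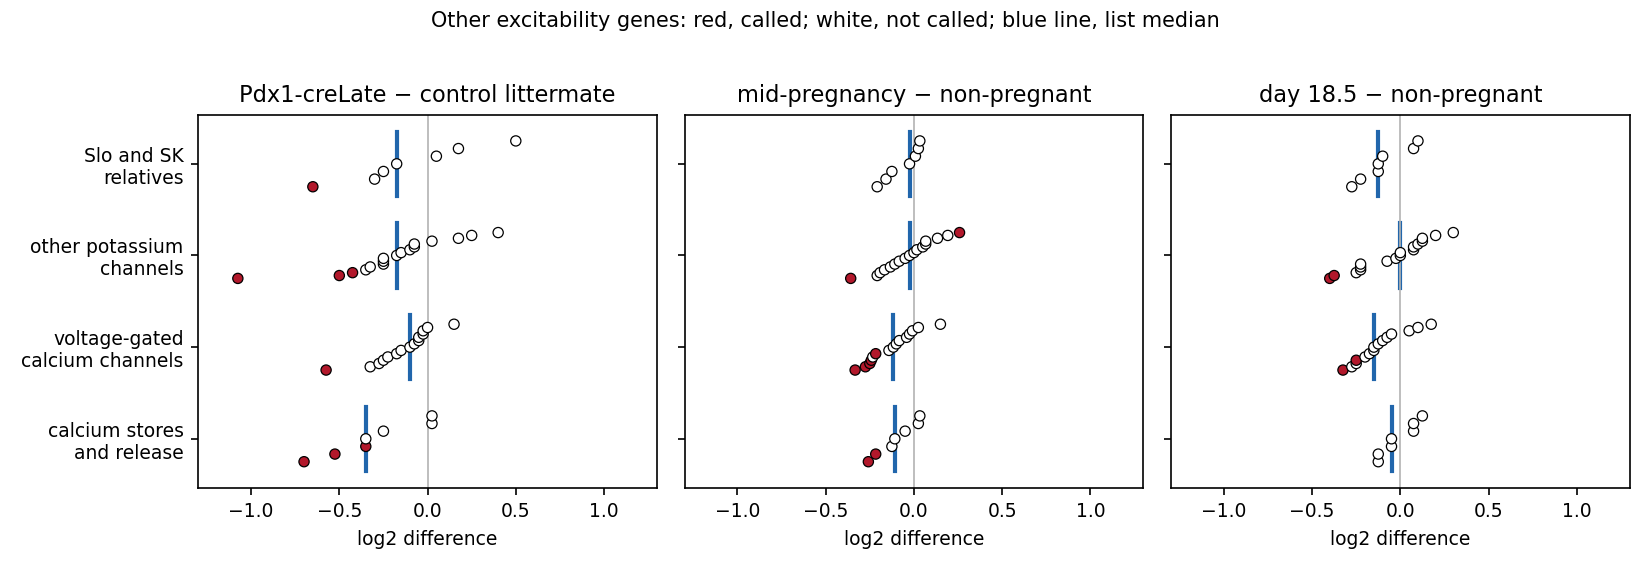
Log2 differences of 46 genes in 4 excitability lists in 3 comparisons; red points were called, white points were not, and the blue line is the list median. In Pdx1-creLate islets the 8 called genes all lie below 0, the lowest being Kcnk16 at −1.08.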

How the data were processed

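The deposited table holds log2 values of 35556 probe sets on 39 arrays, made by the authors with RMA (background correction, quantile normalization and summary per probe set) in Affymetrix Expression Console, per the submitters' processing notes. Its version, and whether all arrays were processed in 1 run, are not given in the sources used here. Values carry 1 decimal, none is missing, and all 39 arrays were used. Precision is limited by the number of arrays, and read depth does not apply.

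Of the probe sets, 21789 had 1 gene symbol, 1621 several and 12146 none. The probe set with the highest mean per symbol was kept, which gave 19938 genes, with no filter on low values. The 8 members were matched to RefSeq by gene ID. Levels were modelled per group by lmFit and eBayes of limma 3.58.1 under R 4.3.3. Two-sided p-values were adjusted after Benjamini-Hochberg for all genes and called under 0.05. The 8 backcross arrays were fitted alone, the 31 C57bl6/J arrays in 1 model, and the difference between the transgene and mid-pregnancy effects with all 39. The procedure was tested on simulated data.

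The members, gene lists and marker lists were chosen with earlier results of these data known. Genes named besides the members were the 5 highest and 5 lowest in r with Lrrc55, up to 4 called genes per excitability list with the largest difference (transgene, mid-pregnancy and day 18.5), and Kcnj11, Abcc8 and Cacna1d in any case. Markers are given by counts, with the one of largest difference named where a list moved. Alternatives were other filters, normalizations, variance models, probe set rules, covariates, a replicate block, 1 model for all arrays, and leaving out each array in turn. Python 3.11.15, numpy 2.4.6, pandas 2.3.3 and matplotlib 3.10.9 were also used.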

Additional observations from a re-analysis of the deposited data

Results flagged for a closer look

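The transgene and mid-pregnancy effects on Kcnk16 (TALK-1) differed by −1.09 in limma's test of the difference itself (adjusted p = 2.06e-09 over all genes). The level fell by 1.08 in Pdx1-creLate islets relative to control littermates, and the call stood under every alternative run and without any 1 array (adjusted p 9.32e-10 to 2.22e-08 without single arrays). The 2 comparisons also differ in strain background and, by the sex-linked genes, in sex. Kcnk16 was named for its transgene difference, which is part of this test, and 7 of the 46 listed genes were called in it.

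In 18 of the 70 groups of 4 arrays tested for the 8 members, 1 array stood far from the other 3 relative to the range of the group. Chance flags about 1 group in 20. All 18 were groups in which the other 3 arrays had the same value at 1 decimal, so the gap equals the whole range and can be as small as 1 rounding step. For Lrrc55 the array was at 8.2 at day 12.5. For Lrrc26 it was at 5.5 at day 9.5, 5.7 at day 15.5 and 6.2 post partum. For Lrrc38 it was at 5.4 in Pdx1-creLate islets, 5.5 at day 15.5 and 4.6 at day 18.5, and for Lrrc52 at 5.3 post partum. For Kcnma1 it was at 8.6 in non-pregnant mice, 8.7 at day 15.5 and 8.6 at day 18.5. For Kcnmb1 it was at 5.3 at day 6.5 and 5.6 at day 9.5. For Kcnmb2 it was at 9.6 in non-pregnant mice, 9.1 at day 6.5, 9.3 at day 12.5 and 9.4 post partum, and for Kcnmb4 at 5.2 at day 9.5.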

How the results depend on the processing

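The differences of Lrrc55 moved by less than the spread between replicates under the alternatives run, except that its transgene effect minus its mid-pregnancy effect ranged from 1.63 to 2.27 without single arrays. Its difference across birth ranged from −0.01 to 0.23 without single arrays, on both sides of 0. Leaving out single arrays gave 0 to 2 called members at day 9.5, 0 to 1 at day 18.5, 0 to 1 post partum against non-pregnant, 2 to 4 across birth and 0 to 1 for the difference between the effects, and 4 to 10 called list genes in mid-pregnancy and 2 to 6 at day 18.5. With quantile normalization of all 39 arrays, the called members numbered 1 at day 9.5 (Kcnmb2, −0.23, in place of Lrrc26 and Lrrc52), 0 at day 18.5, 2 across birth, 2 in the F-test and 1 for the difference between the effects (Kcnmb2, adjusted p = 0.0498), and Kcnmb2 across birth turned to 0.0022. With arrays centred on their medians, which are known to 1 decimal, they were 0 at day 9.5 and 0 at day 18.5, and 3 list genes were called in mid-pregnancy. Centring moved the median of all genes by 0.10 at days 9.5 and 18.5 against non-pregnant and by −0.13 across birth, where 4 members were called: Kcnma1 was gained and Lrrc38 and Kcnmb1 were lost. A trended and robust variance left 0 at day 18.5. The acinar marker mean as a covariate left 1 at day 9.5 and 3 across birth. The array SD as a covariate left 0 at day 9.5, 0 at day 18.5, 0 across birth and 2 in the F-test, with 4 list genes in the transgene comparison and 2 at day 18.5. All 39 arrays in 1 model gave 1 called member (Kcnmb2) and 17 list genes in the transgene comparison, and 3 members across birth. Shares of all genes called are not given here for the covariate fits or for the 1 model. Without the lowest 25% of genes 7 list genes were called at day 18.5. Of the 10 genes named for likeness, 1 was named again with Spearman's rho, 5 with the 8 C57bl6/J groups alone, 5 with a span of at least 0.5 and 9 with r over 39 arrays. The cause of these changes was not tested.

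Replicate numbers are shared between groups, but same-numbered arrays deviated together in no comparison in every pair (r from −0.34 to 0.31 over all pairs), so the numbers may be names alone. With the replicate number as a block, the call of Kcnmb2 across birth ended (−0.18, adjusted p = 0.0505), as did that of Atp2a2 (−0.35, adjusted p = 0.102), which left 4 members called across birth. Of 106 tests of single named genes the other 104 stayed on their side of the threshold.

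The 1-decimal values limit differences between single arrays, 3 or 4 arrays per group limit the tests, and the lack of a detection call limits what can be said of levels near background. Without an age or a stated sex for the backcross mice, and with strain and, by the sex-linked genes, sex differing, the transgene and pregnancy effects are compared across unlike mice.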
